A study of Mus musculus with 38 samples.

Results

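The effect of doxycycline (Dox) on RNA levels in VM-3055 cells was described over all genes, from the 8 libraries of this line among the 38 libraries of the series. The libraries were taken by their sample labels: 4 libraries labelled as VM cells kept on Dox, and 4 labelled as VM cells from which Dox was withdrawn (labelled no-dox here). VM-3055 is a cell line grown from a kidney tumour of a mouse that carried a Dox-inducible MYC transgene (Tet-O-MYC), switched on through an rtTA under the kidney-specific Ksp promoter, and a floxed Vhl gene deleted by a tamoxifen-inducible Cre under the same promoter. Both groups therefore share the genotype Vhl-/-; MYC +, and differ in whether Dox was present over the 24 h between plating and RNA collection. One line from one tumour was used. The labels do not say whether the libraries came from separate cultures, so p-values measure the spread between these libraries, which may be technical. No VM line without the transgene was included, so an effect of Dox itself and an effect of the transgene cannot be told apart. Source of tissue is labelled kidney and the kidney cadherin Cdh16, the gene of the Ksp promoter, had at least 3464 units in each of the 8 libraries.

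MYC is a transcription factor that binds DNA as a dimer with MAX, most strongly at the E-box sequence CACGTG. It is known for raising the output of genes for ribosome production, nucleotide synthesis and cell division, and for lowering genes of growth arrest and of adhesion. Loss of VHL, the most frequent event in clear cell kidney cancer, leaves HIF proteins undegraded, and is present here in both groups.

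Reads were aligned to mm9 and assigned to genes by the authors with RSEM, after which the upper quartile of each library was set to 1000 units. This unit does not correct for gene length, so levels are compared between groups, and genes are ordered by level only to choose which to name. The libraries labelled Dox hold 14.4 to 17.3 M estimated reads and those labelled no-dox 15.1 to 36.6 M. Most values of one library, replicate 2 labelled no-dox, thus rest on more reads than elsewhere, and leaving it out gave 3420 passing genes in place of 3554. The first principal component held 94.5% of the variance of 10420 genes and separated the labels, and pairwise correlations of log2 values within a group were 0.993 to 0.997. The floor of detection is the value of 3 reads, 1.16 to 2.65 units depending on the library. Changes are differences of the mean log2(value + 1), labelled Dox minus labelled no-dox, fitted with limma over the 14319 genes with a value above 0 in 4 libraries or more. Passing required both a p below 0.05 after Benjamini-Hochberg adjustment and a log2 change above 1 in size, and "rose" and "fell" are used only of genes that passed. Values after ± are SDs over the 4 libraries of a group, and gene positions are on mm9 from GENCODE vM1. The scaling is relative and the samples are bulk, so a change of total RNA per cell is not visible, and fewer cells of a type cannot be told apart from less RNA per cell.

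The engineered genes were read first. Vhl had 10.3, 14.5, 12.7 and 14.9 units in the libraries labelled Dox and 25.6, 35.3, 38.8 and 24.3 in those labelled no-dox, and the groups did not overlap, as in 68.1% of all genes tested (log2 change −1.17, SE 0.21, adjusted p 9.20e-05). It is deleted in both groups, and reads outside the deleted part may still count. Cdkn2a, which encodes p16INK4a and p19ARF and was not deleted in this line, had 3804 ± 359.7 units labelled Dox and 5162 ± 476 labelled no-dox (log2 change −0.44, SE 0.068, adjusted p 1.27e-05), and did not pass. The row named Myc (chromosome 15, 61816946 to 61821929) had 405, 413, 338 and 379.8 units in the libraries labelled Dox and 1308, 1399, 1406 and 1345 in those labelled no-dox. It was thus lower in each library labelled Dox (log2 change −1.83, SE 0.061, adjusted p 2.22e-14), which goes against the label if the row counts the transgene. In the VIM-3039 and MYC-2983 lines of the series, the log2 changes of the Myc row were −1.96 and −1.44. By immunoblot, the paper reports that MYC protein in VM-3055 cells depended on Dox. Whether the reads of the transgene enter the Myc row is not given in the sources used here, so directions are given by label only. Of the other members of the MYC and MAX network, Max, the obligate partner of MYC, had 1655 ± 55.2 units labelled Dox and 975 ± 48.5 labelled no-dox (log2 change 0.76, SE 0.048, adjusted p 8.31e-11) and did not pass. The neuroblastoma paralog Mycn fell from 41.2 to 1.77 units, and the MAX-binding repressors Mxd4 and Mxd1 fell by 1.02 and 1.43 on the log2 scale. The repressor Mxi1 had a log2 change of 0.58 and did not pass. In all, 4 of 12 tested members fell and 0 rose, against 18.9% and 5.92% of all genes tested, with a median of 0.063.

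Of the 14319 genes tested, 847 rose (5.92%) and 2707 fell (18.9%), and counts within gene lists are to be read against these shares. A positive change of any size was found in 5306 of the 14319 with the deposited scaling, so negative changes were the more frequent. Counts of members with a positive or negative change are to be read against this. Among passing genes, 680 that rose and 1646 that fell had a group mean of 50 units or more. Changes of more than 4-fold were found in 107 genes that rose and 614 that fell, and of more than 8-fold in 24 and 108. The genes that rose made up 9.79% of the summed level labelled Dox and 3.57% labelled no-dox, whereas those that fell made up 7.14% and 18.5%. The median log2 change of all genes tested was −0.26, and the split into rises and falls depended on how libraries were scaled. TMM rescaling, which moved that median to −0.073, gave 1277 rises and 2094 falls (62.1% lower, against 76.2% with the deposited scaling). Quantile normalization, which moved it to −0.0073, gave 1490 and 1591 (51.6% lower). Of the 3554 passing genes, 2941 also passed with TMM and 2438 with quantile normalization, and 0 of these changed sign. The 47 gene lists described here kept the sign of their median under both. List medians are given beside the −0.26 of all genes tested. Among genes named below, the falls of Aqp1, Axl, B2m, Bcl2l1, Cdh2, Cdkn1a, Dnajb9, Gadd45a, Hk1, Mxd4, Ndrg1, Rb1, Sat1, Smad3, Smad7, Srxn1, Tgfb1, Vhl and Vwf did not pass with TMM, and those of Actg2, Aqp1, Bik, Cdkn1a, Dnajb9, Gadd45a, Mxd4, Sat1, Smad3, Smad7, Srxn1, Tert, Tgfb1, Vhl and Vwf did not pass with quantile normalization. Of these, Actg2 was at or under the floor in every library of both groups. In turn, Amd1, Eif4e, Odc1, Pes1, Slc7a5 and Top2a did not pass with the deposited scaling but passed as higher with TMM, and so did Ccnd2, Slc7a5 and Top2a with quantile normalization.

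**Figure D1:**
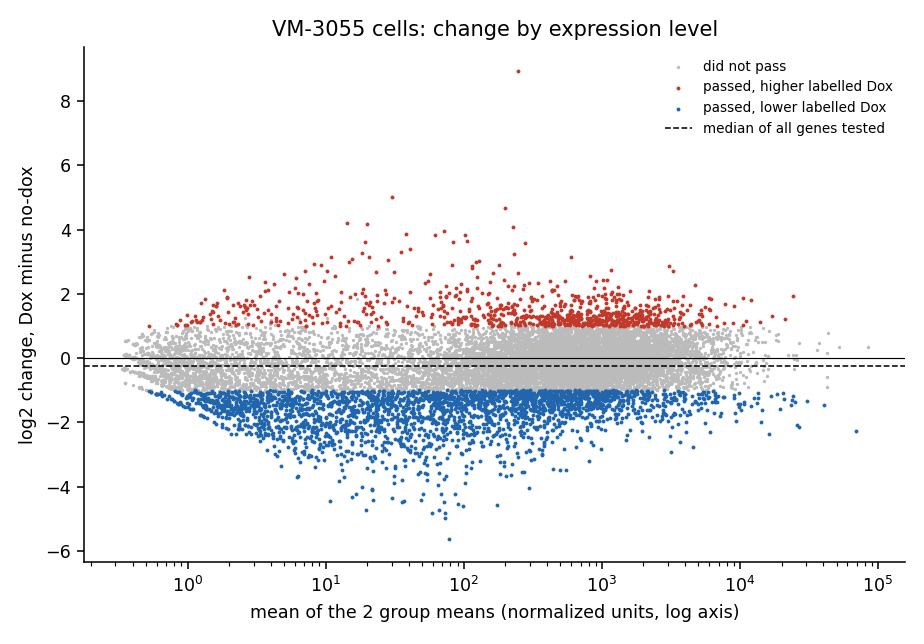
Log2 change between libraries labelled Dox and labelled no-dox (vertical) against the mean of the group means in normalized units (horizontal, log axis) for the 14319 genes tested in VM-3055 cells. Each point is a gene, red for the 847 that passed as higher, blue for the 2707 that passed as lower and grey for the rest, and the dashed line is the median of −0.26. Passing genes are found at all levels, and those lower in the libraries labelled Dox are the more numerous.

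**Figure D2:**
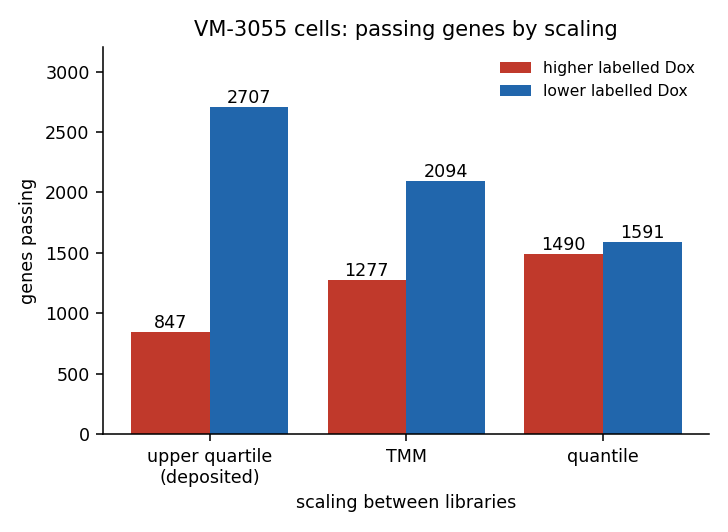
Number of genes passing as higher (red) and lower (blue) in the libraries labelled Dox under the deposited upper quartile scaling, TMM rescaling and quantile normalization. Falls outnumber rises with the deposited scaling (2707 against 847), and the difference is smallest with quantile normalization (1591 against 1490).

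Genes for the making of ribosomes rose as a group. Of 30 tested genes for RNA polymerase I and the processing of ribosomal RNA, 26 rose, 0 fell and all 30 had a positive change, with a median log2 change of 1.57 and a range of 0.49 to 2.29. The largest rise was in Nolc1, a nucleolar phosphoprotein, with 8302, 7617, 7868 and 7471 units in the libraries labelled Dox and 1564, 1682, 1538 and 1603 in those labelled no-dox. Polr1b, a large subunit of RNA polymerase I (chromosome 2, 128926731 to 128952330), had 2597, 2587, 2672 and 2559.7 units in the libraries labelled Dox and 635, 642, 625 and 548 in those labelled no-dox. Every library labelled Dox stood above every library labelled no-dox for both genes. Ncl, which encodes the abundant nucleolar protein nucleolin, had 38274 ± 1235 units labelled Dox and 9955 ± 959.7 labelled no-dox (log2 change 1.95, SE 0.063, adjusted p 1.38e-14). Npm1, a nucleolar histone chaperone, had 18784 ± 1257 units labelled Dox and 5394 ± 594 labelled no-dox (log2 change 1.80, SE 0.068, adjusted p 8.96e-14). The 4 members that did not pass were Rrn3, Polr1c, Pes1 and Ubtf, with log2 changes of 0.80, 0.76, 0.87 and 0.49. Rrn3 and Ubtf are initiation factors of RNA polymerase I.

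A list of 20 textbook targets that MYC raises had 12 rises, 1 fall and a median of 1.24, and shares Ncl, Npm1 and others with the ribosome list. Its largest rise was Srm, the spermidine synthase (chromosome 4, 147965612 to 147969102), with 6017, 5643, 5455 and 5613 units in the libraries labelled Dox and 882, 839, 905 and 829 in those labelled no-dox (log2 change 2.72, SE 0.045, adjusted p 1.57e-17). The groups are separated by a ratio of means of 6.58. Cad, the enzyme of the first steps of pyrimidine synthesis, had 9303 ± 589 units labelled Dox and 2543 ± 101 labelled no-dox (log2 change 1.87, SE 0.05, adjusted p 1.34e-15). Tfrc, the transferrin receptor, rose, with 15240.4 ± 541 units labelled Dox and 6917 ± 662 labelled no-dox (log2 change 1.14, SE 0.059, adjusted p 5.98e-12). Odc1, Ccnd2 and Cdk4 had log2 changes of 0.87, 0.53 and 0.28, and did not pass. The fall was Tert, the telomerase catalytic subunit, at 2.66 ± 1.20 units labelled Dox and 9.56 ± 1.999 labelled no-dox. Of 9 genes that MYC is known to lower, 6 fell, 0 rose, and the median was −1.10, while 2 fell with TMM and, with quantile normalization, 3 fell and 1 rose. The largest fall among them was Thbs1, an adhesive matrix glycoprotein, and the stress-response gene Gadd45a fell by 1.14 on the log2 scale. Ndrg1, a growth-arrest gene also known as a HIF target, fell by 1.06.

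The E-box was looked up in RefSeq promoter windows (GRCm38.p6, 250 bases before to 50 after each annotated start). The hexamer CACGTG reads the same on both strands. It was found in 7.15% of all 32851 windows. Of the 11249 tested genes with a window, 11.3% held it in at least 1 window. The share was 17.6% of 666 genes that rose, 9.33% of 2048 that fell and 11.3% of 8535 that did not pass. Among lists with many rises, it was held by 5 of 25 matched ribosome biogenesis genes, 4 of 18 matched genes of nucleotide synthesis and 6 of 16 matched textbook targets. Among lists with many falls, it was held by 9 of 24 matched lysosome and autophagy genes, 1 of 21 matched interferon and antigen presentation genes and 0 of 23 matched collagens. The share in the lysosome list, 37.5%, equals that in the textbook targets, so the hexamer was found in lists of either direction. The windows of 4 genes of the ribosome biogenesis and textbook target lists that rose and hold the hexamer are printed to show where it lies. CACGTG is in capitals, and windows are in the gene's direction. Some windows, such as repeated ones, were left out before the choice. Members that hold the hexamer but did not pass are not printed. Hspd1 encodes the mitochondrial chaperonin HSP60, Mybbp1a a nucleolar MYB-binding protein, Nop2 a ribosomal RNA methyltransferase and Utp20 a part of the small-subunit processome.
Hspd1, chr1:55088194-55088493, minus strand: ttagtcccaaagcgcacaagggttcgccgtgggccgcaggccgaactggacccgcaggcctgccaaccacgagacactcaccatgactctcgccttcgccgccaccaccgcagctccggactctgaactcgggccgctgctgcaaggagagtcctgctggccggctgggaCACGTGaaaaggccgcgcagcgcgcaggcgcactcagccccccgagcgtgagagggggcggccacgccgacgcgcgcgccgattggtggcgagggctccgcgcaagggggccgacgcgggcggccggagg
Mybbp1a, chr11:72441077-72441376, plus strand: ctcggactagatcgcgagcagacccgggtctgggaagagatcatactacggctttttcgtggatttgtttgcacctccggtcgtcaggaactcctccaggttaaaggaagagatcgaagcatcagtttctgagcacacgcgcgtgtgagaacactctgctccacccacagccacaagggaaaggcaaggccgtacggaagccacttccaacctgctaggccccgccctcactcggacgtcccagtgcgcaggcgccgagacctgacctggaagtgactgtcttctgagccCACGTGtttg
Nop2, chr6:125131633-125131932, plus strand: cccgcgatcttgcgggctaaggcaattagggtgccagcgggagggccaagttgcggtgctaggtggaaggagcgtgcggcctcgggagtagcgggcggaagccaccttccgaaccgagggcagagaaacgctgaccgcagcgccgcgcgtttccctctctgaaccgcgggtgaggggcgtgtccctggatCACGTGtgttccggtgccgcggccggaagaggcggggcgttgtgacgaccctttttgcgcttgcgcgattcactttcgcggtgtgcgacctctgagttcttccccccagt
Utp20, chr10:88826765-88827064, minus strand: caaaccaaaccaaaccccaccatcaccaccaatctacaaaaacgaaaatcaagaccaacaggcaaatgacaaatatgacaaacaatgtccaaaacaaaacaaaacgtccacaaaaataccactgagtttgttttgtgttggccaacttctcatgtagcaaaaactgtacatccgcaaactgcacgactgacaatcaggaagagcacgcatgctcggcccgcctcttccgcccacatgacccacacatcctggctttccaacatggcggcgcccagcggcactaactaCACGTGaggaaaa
Counted from the annotated start base, the hexamer begins at −80 in Hspd1 and −60 in Nop2, and lies after the start, at 40 and 37, in Mybbp1a and Utp20. Hspd1 had 16763, 16213, 16660.4 and 16154 units in the libraries labelled Dox and 4431, 4808, 4217 and 4472 in those labelled no-dox. The levels were 11820.4 ± 383 units labelled Dox and 3672 ± 125 labelled no-dox for Mybbp1a, 3639.6 ± 86.1 units labelled Dox and 1204 ± 69.4 labelled no-dox for Nop2 and 3673 ± 88.8 units labelled Dox and 1817 ± 221 labelled no-dox for Utp20, with log2 changes of 1.69, 1.596 and 1.02. A match describes the letters of a window only.

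Genes of translation had positive changes of smaller size. All 80 tested cytosolic ribosomal protein genes had a positive change, with a median log2 change of 0.70, and 7 rose. Among these, Rpl34 had 668 ± 6.67 units labelled Dox and 258 ± 47.9 labelled no-dox. The largest change was in Rpl27 at a low level, 29.1 ± 5.21 units labelled Dox and 7.38 ± 4.98 labelled no-dox. Many pseudogenes of these short genes exist, and reads may be shared with them, so single members are uncertain. The count that passed was 25 with TMM and 22 with quantile normalization. Of 74 mitochondrial ribosomal protein genes, 2 rose (13 with TMM and 11 with quantile normalization), 68 had a positive change, and the median was 0.50. Mrpl12 was the largest, with 2679 ± 148 units labelled Dox and 1015 ± 67.8 labelled no-dox (log2 change 1.40, SE 0.054, adjusted p 1.19e-13). Of 20 cytosolic aminoacyl-tRNA synthetases, Vars, for valine, was the only one to rise with the deposited scaling (5609 ± 431 units labelled Dox and 2143 ± 93.8 labelled no-dox, log2 change 1.39, SE 0.053, adjusted p 1.26e-13), and 3 rose with TMM. Of 21 initiation and elongation factors 4 rose, and all 21 had a positive change (7 rose with TMM). Eif5a, the factor that carries hypusine made from spermidine, had 29424 ± 247 units labelled Dox and 12683 ± 156 labelled no-dox (log2 change 1.21, SE 0.046, adjusted p 1.06e-13), and Eef1e1 rose by 1.46. The cap-binding factor Eif4e and its inhibitor Eif4ebp1 had log2 changes of 0.88 and 0.37, short of the threshold. Of 12 chaperonin genes, which fold newly made proteins, Hspd1 and its partner Hspe1 rose, and all 12 had a positive change with a median of 0.82 (6 rose with TMM and 4 with quantile normalization).

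**Figure D3:**
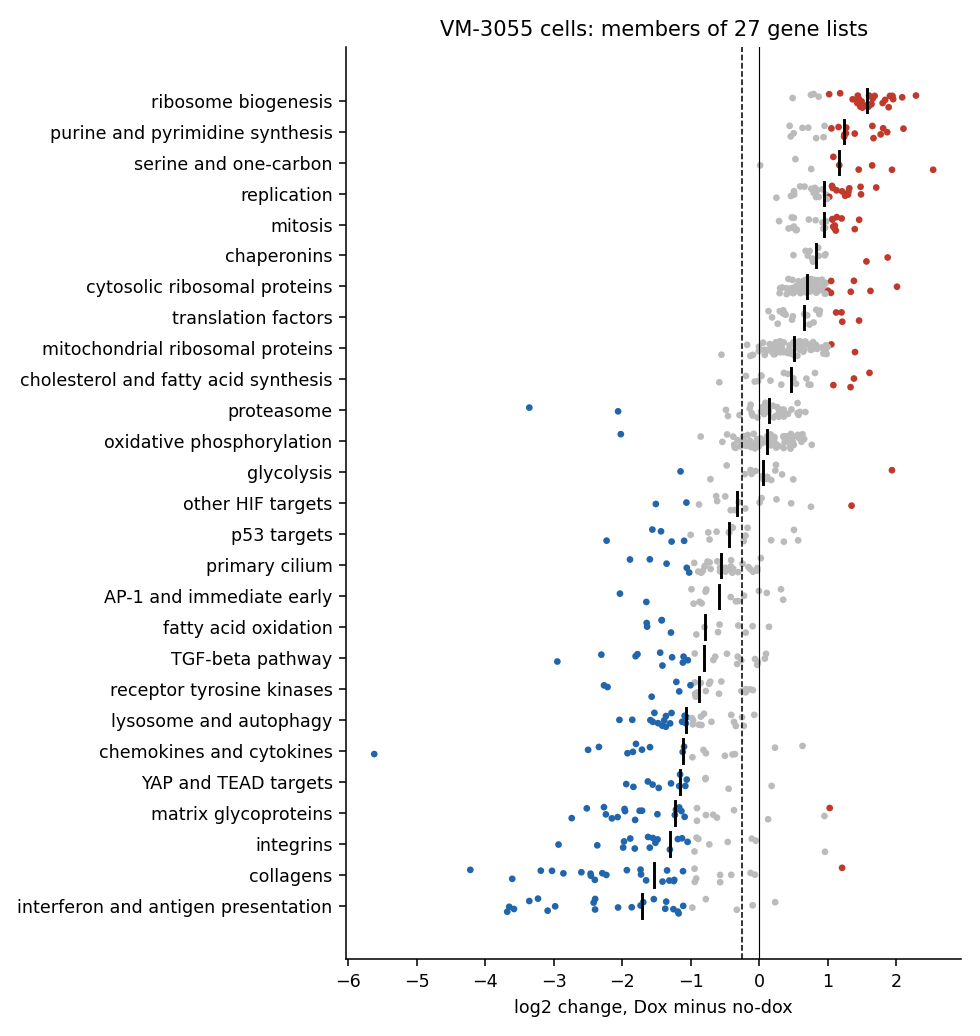
Log2 change (horizontal) of each tested member of 27 gene lists in VM-3055 cells. Each point is a gene, red where it rose, blue where it fell and grey where it did not pass; black bars are list medians, and the dashed line is the median of all genes tested (−0.26). Ribosome biogenesis has the highest median (1.57) and interferon and antigen presentation the lowest (−1.71).

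Most genes for making nucleotides rose. Of 21 genes of purine and pyrimidine synthesis, 13 rose, 0 fell and all 21 had a positive change, with a median of 1.24. Dhodh, the mitochondrial step of pyrimidine synthesis (chromosome 8, 112115243 to 112132573), had 739, 688, 689 and 689 units in the libraries labelled Dox and 157, 168, 169.8 and 153 in those labelled no-dox. The 4 libraries labelled Dox lay above the others by a ratio of means of 4.33. In the purine path, Prps1 and Gart rose by 1.81 and 1.77, and Ppat, the committed step, by 1.16. Paics, which lies head to head with Ppat on the other strand, had a log2 change of 0.63 and did not pass. Impdh2, which leads to guanine nucleotides, rose by 1.67. Of 9 serine and one-carbon genes 6 rose. Shmt1, the cytosolic serine hydroxymethyltransferase (chromosome 11, 60601606 to 60625220), showed the largest rise of this list, with 1448, 1395, 1405 and 1373 units in the libraries labelled Dox and 258, 235, 226 and 245 in those labelled no-dox. Its mitochondrial counterpart Shmt2 and the phosphoserine aminotransferase Psat1 rose by 1.94 and 1.65, and Mthfd2 by 1.08. Phgdh, the first enzyme of serine synthesis, had a log2 change of 0.76 and did not pass. In polyamine metabolism, Srm and the spermine synthase Sms rose, while Sat1, which acetylates polyamines for export and breakdown, fell by 1.09, with 454 ± 25.03 units labelled Dox and 971 ± 91.6 labelled no-dox. Amd1, which supplies their aminopropyl groups, had a log2 change of 0.80. With TMM, 4 of the 7 polyamine genes rose and 0 fell.

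Of 18 amino acid transport and glutamine genes, 2 rose and 0 fell (3 rose with TMM and with quantile normalization). Gls2, the liver-type glutaminase (chromosome 10, 127631513 to 127647060), had 529, 472, 542 and 498 units in the libraries labelled Dox and 45.9, 38.8, 48.8 and 34.2 in those labelled no-dox (log2 change 3.59, SE 0.11, adjusted p 9.48e-15). The groups lay far apart. The glutamine carrier Slc1a5 rose by 1.99, with 2124 ± 142 units labelled Dox and 533 ± 21.1 labelled no-dox. Slc7a5 and Slc3a2, the subunits of the large neutral amino acid exchanger, had log2 changes of 0.99 and 0.16 and did not pass.

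Of 18 genes of glycolysis and lactate export, 1 rose and 1 fell, and the median log2 change was 0.06. Slc16a1, which encodes the lactate carrier MCT1 (chromosome 3, 104442591 to 104462385), had 6098, 5981, 6334 and 6181 units in the libraries labelled Dox and 1531, 1664, 1559 and 1659.7 in those labelled no-dox. Hk1, the constitutive hexokinase, fell by 1.15, with 756 ± 6.49 units labelled Dox and 1678 ± 65.2 labelled no-dox. The glucose carrier Slc2a1, the hexokinase Hk2 and the lactate dehydrogenase Ldha had log2 changes of −0.21, 0.24 and 0.33. Other known HIF targets, in a line without VHL in both groups, gave 1 rise and 2 falls among 16 tested. Of all genes tested, 5.92% rose and 18.9% fell. The carbonic anhydrase Car12 rose, with 1441 ± 19.7 units labelled Dox and 566 ± 31.4 labelled no-dox (log2 change 1.35, SE 0.05, adjusted p 6.80e-14). The atypical cyclin Ccng2 fell by 1.51, with 658 ± 40.9 units labelled Dox and 1872 ± 91.0 labelled no-dox. Vegfa, Car9 and Egln3, all HIF targets, had log2 changes of −0.61, −0.50 and −0.35, and did not pass. Among 76 nuclear genes for oxidative phosphorylation subunits, 0 rose and 1 fell, with a median of 0.12. That gene, Cox7a1, was at most near the floor in the libraries labelled Dox, with 0.766 ± 1.05 units labelled Dox and 5.96 ± 3.55 labelled no-dox.

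Of 20 genes for making cholesterol and fatty acids, 4 rose and 0 fell, with a median of 0.46. Fasn, the fatty acid synthase, had 14575, 14611, 13051 and 11945 units in the libraries labelled Dox and 4392, 4690.2, 4124 and 4481 in those labelled no-dox, and Acaca, the step before it, rose by 1.33. In the sterol path Idi1 and Mvd rose by 1.38 and 1.08, while Sqle had a log2 change of 0.42 and did not pass. Of 13 genes for fatty acid oxidation and storage, 5 fell and 0 rose, with a median of −0.80. Cpt1a, the entry of fatty acids into mitochondria, fell by 1.642 with 106 ± 17.5 units labelled Dox and 332 ± 31.2 labelled no-dox. The coactivator Ppargc1a and the lipid droplet coat Plin2 fell by 1.636 and 1.42.

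Genes of the cell cycle rose in part. Of 28 genes for replication licensing and forks, 12 rose and 0 fell, and all 28 had a positive change (median 0.95). With TMM 20 passed and with quantile normalization 16. Mcm10 rose most, with 1237 ± 42.9 units labelled Dox and 378 ± 20.1 labelled no-dox (log2 change 1.71, SE 0.054, adjusted p 1.04e-14), and the licensing factors Cdc6, Cdt1 and Orc1 rose by 1.32, 1.48 and 1.49. Pcna, the sliding clamp, rose by 1.02. Of 24 mitosis genes 10 rose and all 24 had a positive change, with a median of 0.95; TMM gave 15. Aurkb, Cdc20, Cdk1 and Ccnb1 rose by 1.46, 1.40, 1.20 and 1.13. The proliferation markers Mki67 and Top2a had log2 changes of 0.73 and 0.93 and did not pass.

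Among 17 G1 genes, 3 rose and 2 fell (5 and 1 with TMM, 6 and 2 with quantile normalization). Ccne1, cyclin E1 (chromosome 7, 38883003 to 38892553), had 1019.7, 927, 1025 and 963 units in the libraries labelled Dox and 279.5, 300.1, 293 and 254 in those labelled no-dox. Ccne2 and the phosphatase Cdc25a also rose, by 1.80 and 1.24. Ccnd1, cyclin D1 (chromosome 7, 152115836 to 152125774), had 851, 911, 918 and 869 units in the libraries labelled Dox and 2608, 2861, 2704 and 2835 in those labelled no-dox and fell by 1.63. Rb1, the retinoblastoma protein, fell with 322 ± 14.9 units labelled Dox and 739 ± 72.8 labelled no-dox (log2 change −1.19, SE 0.069, adjusted p 2.67e-11), and E2f1 had a log2 change of 0.55. Every library labelled Dox was above all others for Ccne1 and below all others for Ccnd1. Of 7 tested CDK inhibitors 0 rose and 2 fell: Cdkn2b (p15) with 235 ± 20.3 units labelled Dox and 645 ± 33.5 labelled no-dox (log2 change −1.46, SE 0.07, adjusted p 2.26e-12) and Cdkn1a (p21) with 549 ± 17.9 units labelled Dox and 1174 ± 53.9 labelled no-dox (log2 change −1.10, SE 0.051, adjusted p 1.34e-12). Cdkn1b (p27) had a log2 change of −0.38. All 7 had a negative change, and 1 fell under either rescaling. Of all genes tested, 18.9% fell.

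Of 20 known p53 targets, 5 fell and 0 rose, with a median of −0.44, against 18.9% that fell of all genes tested. With TMM 4 fell, and with quantile normalization 4. Trp53inp1, an autophagy and death cofactor (chromosome 4, 11083578 to 11101526), had 156, 139, 159 and 167 units in the libraries labelled Dox and 698, 766, 723 and 727 in those labelled no-dox. It is followed by Pmaip1 (Noxa), Plk2, Gdf15 and Cdkn1a, which fell by 1.56, 1.43, 1.28 and 1.10. Mdm2 and Ccng1 had log2 changes of −0.39 and −0.74 and did not pass. In the BCL2 family of 13 genes, Hrk, a BH3-only killer protein, rose with 239.8 ± 27.1 units labelled Dox and 58.8 ± 2.57 labelled no-dox (log2 change 2.01, SE 0.11, adjusted p 8.44e-12), while Noxa, Bik and the survival gene Bcl2l1 fell. Bcl2l1 had 1497 ± 42.8 units labelled Dox and 3103 ± 119 labelled no-dox, and Bik was low with overlapping groups, at 1.25 ± 1.48 units labelled Dox and 4.06 ± 1.44 labelled no-dox. Bcl2 and Bcl2l11 (Bim) had log2 changes of −0.75 and −0.20. In all 1 of the 13 rose and 3 fell, against 5.92% and 18.9% of all genes tested, and 2 fell under either rescaling.

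**Figure D4:**
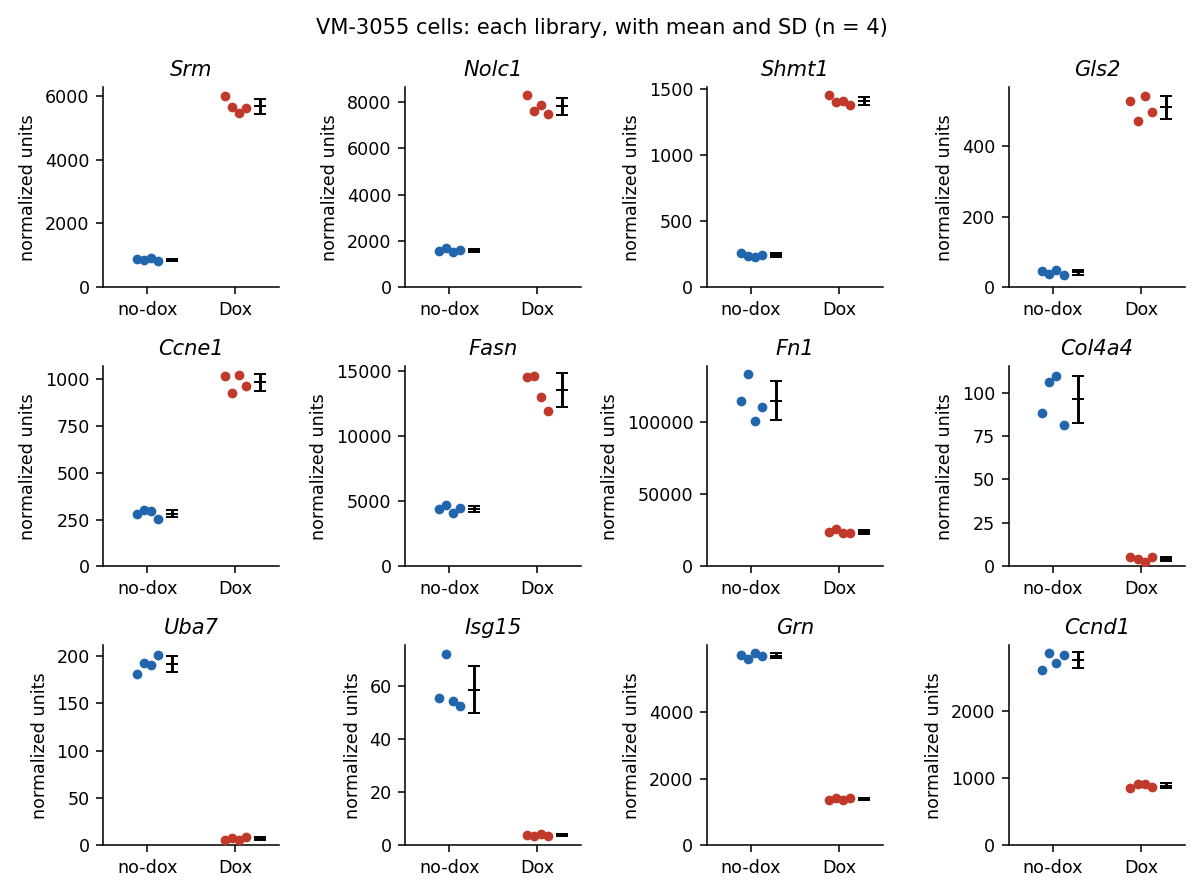
Normalized units (vertical, from 0) in each of the 4 libraries labelled no-dox (blue) and 4 labelled Dox (red) for 12 genes of VM-3055 cells, with the mean and SD beside the points. The first 6 genes (Srm, Nolc1, Shmt1, Gls2, Ccne1 and Fasn) are higher in every library labelled Dox, and the last 6 (Fn1, Col4a4, Uba7, Isg15, Grn and Ccnd1) are lower in every one.

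Genes of the extracellular matrix fell as a group. Of 30 tested collagen genes, 21 fell, 1 rose and the median was −1.53. Col4a4, which with Col4a3 and Col4a5 forms the collagen of kidney basement membranes, had 5.17, 4.26, 2.55 and 5.26 units in the libraries labelled Dox and 88.2, 106, 109 and 81.3 in those labelled no-dox. Col4a3 and Col4a5 fell by 3.61 and 2.23. Among well expressed collagens, Col18a1 had 2064 ± 163 units labelled Dox and 10093 ± 652 labelled no-dox (log2 change −2.29, SE 0.058, adjusted p 8.17e-16), Col6a1 had 1038 ± 80.4 units labelled Dox and 6268 ± 203 labelled no-dox (log2 change −2.60, SE 0.052, adjusted p 8.43e-17), and Col6a2 fell by 3.19. The rise, Col14a1, rests on 2.46 ± 1.12 units labelled Dox and 0.511 ± 0.601 labelled no-dox, with the libraries labelled no-dox all at or under the floor and overlapping groups. Of 26 glycoproteins and remodelling genes, 17 fell, 1 rose and the median was −1.22. Fibronectin, Fn1 (chromosome 1, 71632094 to 71699774), had 23733, 25627, 22765 and 22643 units in the libraries labelled Dox and 114293, 132749, 100479 and 110156 in those labelled no-dox. The lowest library labelled no-dox was well above the highest labelled Dox. Osteopontin, Spp1, had 9962 ± 239.8 units labelled Dox and 41781 ± 2183 labelled no-dox, and Thbs1 had 9806 ± 864 units labelled Dox and 43516 ± 3453 labelled no-dox. Tnc and Sparc fell by 1.97 and 1.71, and the protease inhibitors Timp2 and Timp3 by 1.75 and 1.49. Timp3 shares bases with Syn3 on the other strand. Fbln1, a fibulin, was the gene that rose, with 370.5 ± 28.7 units labelled Dox and 181 ± 14.4 labelled no-dox. The laminin chain Lama3 fell by 2.74, from 153 units.

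Receptors for this matrix fell too, as 15 of 23 tested integrin subunits fell and 0 rose, with a median of −1.30 (12 fell with TMM and 9 with quantile normalization, and 1 rose under each). The common beta chain Itgb1 had 13693 ± 637 units labelled Dox and 33858 ± 2879.5 labelled no-dox, and its partner Itga3 had 5087 ± 368 units labelled Dox and 15362 ± 254 labelled no-dox. Itgav and Itgb3, which form a receptor for vitronectin, fell by 1.62 and 2.36. The collagen receptor chain Itga2 fell by 2.93 at a low level, 0.828 ± 0.696 units labelled Dox and 12.7 ± 4.24 labelled no-dox.

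Of 22 genes of the TGF-beta pathway, 10 fell and 0 rose, with a median of −0.80 (7 fell with TMM and 6 with quantile normalization). Among ligands, Inhba, the activin beta A subunit (chromosome 13, 16103684 to 16119044), had 24.4, 17.9, 21.2 and 21.1 units in the libraries labelled Dox and 169, 191, 158 and 159 in those labelled no-dox. Tgfb3 and Tgfb1 fell by 1.80 and 1.10, and Tgfb2 had a log2 change of −0.94. The type II receptor Tgfbr2 (chromosome 9, 115993415 to 116084383) had 1348, 1317, 1296 and 1275 units in the libraries labelled Dox and 4469, 4472, 4367 and 4646 in those labelled no-dox. Its groups did not overlap. Of the signal carriers, Smad3 fell by 1.04, and the common mediator Smad4 did not pass (log2 change 0.083, SE 0.046, adjusted p 0.109). The inhibitory Smad7 fell by 1.11. Fst, the activin antagonist follistatin, was among the 10 largest falls of genes that reached a group mean of 50 units and whose groups did not overlap.

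Of 14 YAP and TEAD pathway genes and targets 10 fell and 0 rose (median −1.16; 6 fell with TMM and 9 with quantile normalization). The classic targets Ctgf, Cyr61 and Ankrd1 fell by 1.56, 1.63 and 1.84, and Cyr61 had 7075 ± 477 units labelled Dox and 21791 ± 493 labelled no-dox. F3, tissue factor, fell by 1.94. Yap1 itself had 2789 ± 40.2 units labelled Dox and 2459 ± 123 labelled no-dox and did not pass. Of 16 AP-1 and immediate early genes 2 fell: the phosphatase Dusp1, with 178 ± 22.1 units labelled Dox and 728 ± 44.8 labelled no-dox, and Fosl2, with 2062 ± 68.0 units labelled Dox and 6462 ± 183 labelled no-dox. The share of this list that fell was under the 18.9% of all genes tested. Fos, Jun, Egr1 and Fosl1 had log2 changes of −0.87, −0.84, −0.22 and 0.35. Dusp6, a feedback phosphatase of ERK (chromosome 10, 98725865 to 98730122), had 907, 1014, 876 and 871 units in the libraries labelled Dox and 3166, 3349.8, 3137 and 3009 in those labelled no-dox. Other feedback genes of this pathway, Spry4 and Etv5, had log2 changes of −0.37 and −0.12. In all 2 of 10 fell, a share near the 18.9% of all genes tested. All 22 tested receptor tyrosine kinases had a negative change, as had 20 with TMM and 18 with quantile normalization, with a median of −0.88. Of the 22, 6 fell, against 18.9% of all genes tested, and 4 fell under either rescaling. Fgfr1 and Ret fell by 2.21 and 2.27, and Axl had 4268 ± 147 units labelled Dox and 9581 ± 249 labelled no-dox. Met, the receptor mutated in papillary kidney cancer, and Egfr each had a log2 change of −0.94, just short of the threshold.

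The lowest median of any of the 27 lists drawn was that of interferon response and antigen presentation, −1.71 over 26 tested genes, of which 21 fell and 0 rose. With changes of genes at the floor limited to what the floor allows, the median was −1.54, beside −1.53 for collagens. Isg15, a ubiquitin-like modifier (chromosome 4, 155573533 to 155574927), had 3.69, 3.40, 4.24 and 3.51 units in the libraries labelled Dox and 55.6, 71.7, 54.3 and 52.4 in those labelled no-dox. Uba7, the enzyme that activates ISG15 (chromosome 9, 107877895 to 107886387), is not on the list but was among the 10 largest falls chosen in the same way, with 5.91, 7.66, 5.94 and 8.77 units in the libraries labelled Dox and 181, 193, 191 and 201 in those labelled no-dox. Isg15 was lower in each library labelled Dox, which for Uba7 was a condition of its choice. The RNA sensor Ddx58 (RIG-I) and Ifit3 fell by 2.98 and 3.09, with 82.1 ± 13.5 units labelled Dox and 648 ± 52.4 labelled no-dox for Ddx58. Ifit1 is at 0 in each library labelled Dox and had 12.5 units in the others, at least 5.04-fold lower against the floor. Of antigen presentation genes, the peptide transporter Tap2 had 9.62 ± 2.97 units labelled Dox and 122 ± 9.52 labelled no-dox, its partner Tapbp (tapasin) had 768 ± 19.4 units labelled Dox and 2794 ± 123 labelled no-dox, and B2m had 3342 ± 144 units labelled Dox and 7213 ± 442 labelled no-dox (log2 change −1.11, SE 0.05, adjusted p 8.91e-13). H2-K1, a class I heavy chain with close paralogs, had a log2 change of −0.78 and did not pass. The proteasome list of 38 genes had 2 falls and a median of 0.14. Both were immunoproteasome subunits, Psmb8 and Psmb9, at 9.45 and 4.49 units labelled no-dox and at or near 0 labelled Dox, whereas the third, Psmb10, had 344 ± 12.2 units labelled Dox and 369 ± 37.9 labelled no-dox. Of 18 chemokine and cytokine genes and receptors, 10 fell and 0 rose, with a median of −1.11. Csf1, the macrophage growth factor, had 1311 ± 72.9 units labelled Dox and 4289 ± 32.3 labelled no-dox (log2 change −1.71, SE 0.045, adjusted p 1.14e-15), Lif fell by 1.59 and Ccl2 by 1.84.

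Of 30 lysosome and autophagy genes, 16 fell, 0 rose and all 30 had a negative change (29 with TMM and 28 with quantile normalization), with a median of −1.06. Grn, which encodes progranulin (chromosome 11, 102291629 to 102298123), had 1355, 1409, 1356 and 1404 units in the libraries labelled Dox and 5698, 5587, 5771 and 5679 in those labelled no-dox (log2 change −2.04, SE 0.039, adjusted p 5.83e-17). The spread within each group was a small part of the difference. The protease Ctsd fell by 1.39, and Psap, the precursor of activators of lysosomal hydrolases, had 6315 ± 136 units labelled Dox and 17576 ± 108 labelled no-dox. Ctsd overlaps another gene on its own strand. Of the transcription factors that drive these genes, Tfe3 and Tfeb had log2 changes of −0.34 and −0.071 and did not pass. Lamp1, a membrane protein of the organelle, had a log2 change of −0.81.

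Few stress and cilium genes passed, and in each list of this paragraph the share that fell was under the 18.9% of all genes tested. Of 13 genes of the integrated stress and unfolded protein responses 2 fell: Ddit3 (CHOP), with 96.0 ± 13.7 units labelled Dox and 363 ± 29.9 labelled no-dox (log2 change −1.92, SE 0.10, adjusted p 1.40e-11), and Dnajb9. Atf4, Trib3 and Hspa5 had log2 changes of 0.30, −0.64 and −0.17. Among 9 NRF2 targets and antioxidant genes, Nqo1 rose at a low level, 19.6 ± 4.88 units labelled Dox and 7.26 ± 1.97 labelled no-dox, Srxn1 fell by 1.12, and Hmox1 had a log2 change of −0.46. Of 34 genes of the primary cilium, the sensory organelle of tubule cells, 5 fell and 0 rose, with a median of −0.56 (3 fell under either rescaling). Pkhd1, mutated in recessive polycystic kidney disease (chromosome 1, 20047860 to 20608145), had 1105, 1237, 1151 and 1117 units in the libraries labelled Dox and 4086, 5014, 3878 and 4146 in those labelled no-dox. The transport component Ift172 fell by 1.35, while Pkd2, Ift88 and Pkd1 had log2 changes of −0.50, −0.56 and −0.16 and did not pass.

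Markers of cell identity were read as lists. Of 11 tested markers of renal epithelium, 4 fell and 1 rose (median −0.86). Cdh16 fell by 1.37, and Krt8, a simple epithelial keratin, fell from 138 to 10.2 units. Pax8 and Pax2 had log2 changes of −0.96 and −0.20, and Lhx1 rose at a low level, 32.3 ± 6.41 units labelled Dox and 15.7 ± 3.63 labelled no-dox, by 1.001, at the edge of the threshold. In the panel for epithelial to mesenchymal transition, 4 of 8 tested genes fell, namely Vim, Zeb1, Zeb2 and Cdh2, by 1.59, 1.39, 1.25 and 1.16. Cdh1 had 493 ± 24.8 units labelled Dox and 376 ± 33.7 labelled no-dox (log2 change 0.39, SE 0.07, adjusted p 6.22e-05), and Snai1 had a log2 change of −0.015. Snai2 stayed under the floor in all 8 libraries. The vimentin level itself was 9713 ± 573 units labelled Dox and 29203 ± 1108 labelled no-dox.

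Few markers of differentiated tubules were measurable: 8 of 12 proximal markers, among them the phosphate carrier Slc34a1 at 0 in each library, and 8 of 14 markers of later segments were at or under the floor in all 8. Among the rest, Lrp2 (megalin) had 4673 ± 599 units labelled Dox and 5763 ± 1187 labelled no-dox with overlapping groups, its partner Cubn fell by 2.05, Aqp1 fell by 1.19, and Ggt1 rose with 161 ± 8.76 units labelled Dox and 55.6 ± 5.73 labelled no-dox. Of the later segments' markers 5 of 8 tested fell (1 with quantile normalization), among them Kl (klotho), at a low level, by 1.89. These 8 include 2 at or under the floor in both groups. The whole list summed to 119 to 144 units labelled Dox and 276.5 to 327 labelled no-dox.

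Other cell types were represented by few markers. Of 10 leukocyte markers, 5 were at or under the floor in all 8 libraries, including Cd3e and Lyz2, with Tyrobp at 0 in each. Ptprc (CD45) had 14.8, 11.1, 15.3 and 15.8 units in the libraries labelled Dox and 59.1, 60.9, 43.4 and 69.9 in those labelled no-dox, and Csf1r and Cd68 fell by 1.30 and 1.92. The summed level of this list was 363 to 408 units labelled Dox and 946 to 1013 labelled no-dox. Most of it was Csf1r, with 331 to 379 units labelled Dox and 834 to 872 labelled no-dox. Csf1r shares bases with Hmgxb3 on the other strand. The sum moved in the direction of the interferon and chemokine genes. Its part in their fall was not tested. Of 12 fibroblast markers, Thy1 and Lum were at 0 and Dcn and Fap at or under the floor in all 8, and 5 of the 9 tested fell, among them Col1a2 by 2.86 and S100a4 by 1.78. Their sum was 1667 to 1792 units labelled Dox and 4807 to 5464 labelled no-dox, and moved with the matrix genes, in which its part was not tested. Of 8 mural markers, 3 were at or under the floor in all 8, with Rgs5 at 0 in each, and 3 fell, including Tagln by 2.13 and Acta2 at a low level, 0.801 ± 0.608 units labelled Dox and 7.28 ± 2.34 labelled no-dox; the sum was 1058 to 1293 and 2146 to 2492 units. Endothelial markers summed to at most 13.2 units in any library, with Tie1 and Emcn at 0 in each and Vwf at 2.03 ± 0.619 units labelled Dox and 5.42 ± 2.08 labelled no-dox.

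The largest rises, among genes that reached a group mean of 50 units and whose groups did not overlap, began with Sssca1, which shares a strand and bases with Fam89b and was at 0 in each library labelled no-dox; it was the only gene at or under the floor in one group and at 50 units or more in all of the other. Epha8, an ephrin receptor, had 74.6, 61.3, 56.9 and 43.9 units in the libraries labelled Dox and 0.882, 0, 0.775 and 2.28 in those labelled no-dox. Rasd2, a small GTPase (chromosome 8, 77737843 to 77748012), had 461, 398, 429.5 and 424 units in the libraries labelled Dox and 29.98, 17.1, 29.5 and 23.5 in those labelled no-dox (log2 change 4.07, SE 0.15, adjusted p 6.12e-14). Groups that did not overlap were a condition for naming both genes. Gm6644, a predicted gene that shares bases with Plcl1 on the other strand, had 288, 356, 232 and 412 units in the libraries labelled Dox and 0.0353, 0, 179 and 131 in those labelled no-dox, with near 0 and over 100 units among libraries of one group. Tnfrsf19 and Fzd9, receptors of the TNF and WNT families, rose by 3.96 and 3.83, with 121, 121, 95.9 and 126 units in the libraries labelled Dox and 7.05, 5.82, 8.53 and 7.60 in those labelled no-dox for Fzd9. The transcription factor Onecut3, the ubiquitin ligase Pdzrn3, the sulfotransferase Sult1d1 and the carrier Slc16a6 rose by 3.85, 3.84, 3.63 and 3.62.

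Under the same limits on level and overlap, the largest falls began with Cxcr7, a scavenging chemokine receptor, which was followed by Ppbp, a platelet-type chemokine (chromosome 5, 91197544 to 91199086), with 1.48, 5.11, 6.79 and 2.63 units in the libraries labelled Dox and 141, 137, 151 and 135 in those labelled no-dox (log2 change −4.96, SE 0.28, adjusted p 1.96e-11). Fst (chromosome 13, 115242470 to 115249159) had 9.61, 5.96, 6.79 and 4.39 units in the libraries labelled Dox and 176, 187, 184 and 147 in those labelled no-dox (log2 change −4.54, SE 0.20, adjusted p 6.05e-13). Both were under 10 units in each library labelled Dox. Wisp2, a matrix-associated CCN protein, and Tcn2, the vitamin B12 carrier, fell by 4.73 and 4.48. Clec18a, a lectin, the kidney amino acid carrier Slc6a18 and the fatty acid hydroxylase Cyp4a12b fell by 4.83, 4.82 and 4.48. A further row among the 10 is named only by the number 41156 in the deposited table, a form that spreadsheets give to gene names read as dates, and fell by 4.58. Of genes that rose, those with the most units, a measure that grows with gene length, were Ncl, Eif5a, Ptma, AI506816 and Npm1, with Ptma (prothymosin alpha) at 24107 ± 736 units labelled Dox and 9718 ± 196 labelled no-dox and the noncoding AI506816 at 19284 ± 332 units labelled Dox and 8785 ± 348 labelled no-dox. Of genes that fell, they were Fn1, S100a6, Flna, Thbs1 and Spp1. The calcium-binding S100a6 had 21744 ± 648 units labelled Dox and 59603 ± 4844 labelled no-dox, and the actin crosslinker Flna had 17451 ± 862 units labelled Dox and 43967 ± 2419 labelled no-dox.

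The same contrast exists in VIM-3039 cells, which in addition lack Cdkn2a, and in MYC-2983 cells, in which Vhl was not deleted, with 4 libraries in each group. A line by Dox term in limma tested each difference of changes, and each comparison used its own control libraries. The Dox change differed from that of VIM-3039 cells in 918 of 15180 genes (6.05%), 356 higher and 562 lower in VM-3055, and from that of MYC-2983 cells in 1389 of 15813 (8.78%), 515 higher and 874 lower. Of the 847 genes that rose in VM-3055 cells, 648 (76.5%) rose in VIM-3039 cells, which are 60.3% of the 1074 rises there, and of the 2707 that fell, 1639 (60.5%) fell there, 70.6% of 2322. In MYC-2983 cells 363 of the 847 (42.9%) rose, which are 53.5% of the 678 rises there, and of the 2707 that fell, 1431 (52.9%) fell there, 63.2% of 2264. Of the 30 ribosome biogenesis genes, 26 rose in VIM-3039 and 14 in MYC-2983 cells, against 26 in VM-3055, and the list's median log2 change was 1.66 in VIM-3039 and 0.93 in MYC-2983 cells. The changes of Nolc1, Nop2 and Mybbp1a were larger in VM-3055 than in MYC-2983 cells by 0.80, 0.86 and 0.88 on the log2 scale (limma, adjusted p 1.40e-10, 7.58e-11 and 3.68e-11), which was short of the size threshold, and 0 of the 30 differences from either line passed both thresholds. The p53 list had a median of 0.097 in VIM-3039 cells, and 4 of its 20 genes had a lower change in VM-3055 than in VIM-3039 by the term. Against MYC-2983, 1 was higher and 2 lower. For antigen presentation and interferon the medians were −1.14 and −1.93, with 5 genes lower in VM-3055 than in VIM-3039 and, against MYC-2983, 3 higher and 3 lower. For leukocyte markers 3 of the 6 differences tested from VIM-3039 passed as lower in VM-3055. Against MYC-2983, 1 of 6 passed as higher and 2 as lower.

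**Figure D5:**
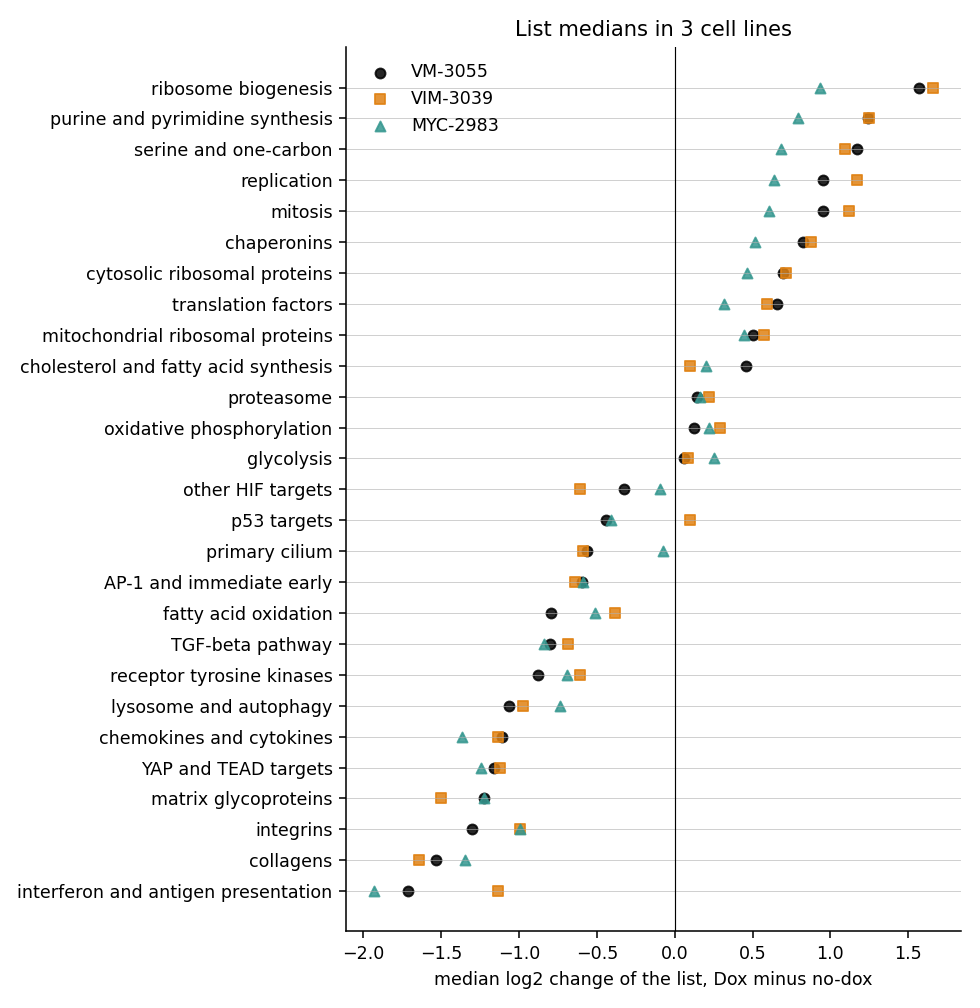
Median log2 change (horizontal, labelled Dox minus labelled no-dox) of 27 gene lists in VM-3055 (circles), VIM-3039 (squares) and MYC-2983 cells (triangles), in the order of the VM-3055 medians. For ribosome biogenesis the medians are 1.57, 1.66 and 0.93, and for collagens −1.53, −1.641 and −1.35.

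Among single genes, the bile acid receptor relative Nr1h5, the cyclin B1 interacting protein Ccnb1ip1 and the claudin Cldn19 had the lowest difference from VIM-3039 cells. Ccnb1ip1 was at 0 in each VM-3055 library, and Nr1h5 did not exceed 10.9 units, whereas they had 315 and 419.8 units in VIM-3039 libraries labelled Dox. Cldn19 fell in VM-3055 by 4.24, with 3.69, 9.36, 6.79 and 5.26 units in the libraries labelled Dox and 132, 114, 134 and 145 in those labelled no-dox, and was under 2 units on average in VIM-3039 cells. At the other end, Epha8 and the aldo-keto reductase Akr1c19 rose in VM-3055 cells, Akr1c19 with 93.2 ± 8.03 units labelled Dox and 17.1 ± 3.68 labelled no-dox, and Actg2, smooth muscle actin, was at most 1.76 units. In VIM-3039 cells Akr1c19 instead fell by 2.09, and Epha8 averaged 0.656 units labelled Dox and 0 labelled no-dox. Actg2 averaged 3.90 units labelled Dox and 101 labelled no-dox there. Against MYC-2983 cells, Camkv, Tdrd1 and Myh7b had the lowest differences and were at most 1.76, 2.71 and 2.28 units in any VM-3055 library, and the highest, Saa3, was at most 3.40. Snai3, a Snail family member, and Slc1a3, a glutamate carrier, rose in VM-3055, with 89.4, 74.9, 97.6 and 87.7 units in the libraries labelled Dox and 15.9, 17.8, 17.1 and 15.2 in those labelled no-dox for Snai3 and 18.3 ± 3.28 units labelled Dox and 2.01 ± 0.850 labelled no-dox for Slc1a3. In MYC-2983 cells their log2 changes were −0.83 and −0.43.

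Some values may hold reads of a neighbour. The kit marked strand, but whether counting used it is not given in the sources used here. Among named genes, Acaca, B2m, Ccnd1, Ccne2, Cdc20, Cdk4, Col18a1, Csf1r, Ddit3, Fosl1, Gls2, Gm6644, Hspd1, Hspe1, Lamp1, Mybbp1a, Myh7b, Paics, Pkd1, Ppat, Rb1, Shmt1, Shmt2, Slc16a6, Slc34a1, Tagln, Timp3, Zeb1 and Zeb2 share bases with another gene of the table on the other strand, and Ctsd, Eif4e, Myh7b, Ncl, Rb1, Sssca1, Tapbp and Timp2 with one on the same strand. Reads of such pairs cannot be told apart here.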

How the data were processed

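RNA of 8 VM-3055 libraries was sequenced from a stranded mRNA kit as paired reads of 75 bases. The deposited values are a signal: the authors aligned reads to mm9 with MapSplice, profiled alignments with Picard (version 1.64 in the submitters' notes), sorted them with SAMtools, filtered them with UBU, estimated reads per gene with RSEM on UCSC knownGene and scaled each library's upper quartile to 1000 units. Reads per library were estimated from the step between low values.

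Values were fitted as log2(value + 1) with limma 3.58.1 (R 4.3.3; empirical Bayes with an intensity trend, two-sided, Benjamini-Hochberg over 14319 genes above 0 in at least 4 libraries). The fit was tested on simulated data. Alternatives were pseudocounts of 0.1 and 10, no filter, a mean filter of 10 units, TMM, quantile normalization, each library left out, a fit of all 6 cell groups together, a replicate block and, chosen after seeing the data, limma voom on estimated reads. Gene positions are GENCODE vM1 (mm9), and promoters are RefSeq (GRCm38.p6). Figures used Python 3.11.15 and matplotlib 3.10.9.

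Groups came from sample labels. The choice to describe these members, and the gene lists, were made with earlier results of these data known. Named genes were the engineered genes, the 10 that rose most and the 10 that fell most where a group mean reached 50 units and groups did not overlap, genes at the floor in one group only, key members and largest changes of each list, the 5 passing genes with the most units each way, the 3 largest line differences each way and promoters with an E-box. Further members were named as examples after their values were seen. Genes of integrin-binding proteins caught by the name pattern were dropped from the integrins. Oaz2 and Hmgcs1 had no row in the table used here, and 26 rows are named by a number. Results for some genes on the lists are not reported here, though list counts and medians include them.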

Additional observations from a re-analysis of the deposited data

Results flagged for a closer look

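A library stood apart from the other 3 of its group, by Dixon's criterion for the gap to the nearest library, in 33 of 471 gene and group combinations among the named genes, and chance alone flags about 1 in 20. Among libraries labelled Dox, a single high library was found for Car12 (1470 units), Ccl2 (58.6 units), Ccng2 (718 units), Cubn (69.6 units), Dhodh (739 units), Flna (18740 units), Gart (5678 units), Max (1737 units), Mxd1 (99 units), Rb1 (344 units), Shmt2 (5165 units), Slc16a6 (169.8 units), Slc1a5 (2336 units), Tfeb (124 units) and Vwf (2.96 units). A single low library was found for Acaca (1523 units), Ddx58 (62.1 units), Itgb1 (12740 units), Psat1 (5339 units), Tfe3 (631 units), Tgfb1 (37.7 units) and Tgfb3 (69.3 units). Among libraries labelled no-dox, a single high library was found for Axl (9951 units), Bik (6.2 units), Cdh16 (9230 units), Ctgf (8921 units), Isg15 (71.7 units), Mthfd2 (1487 units), Mybbp1a (3859 units) and Paics (4410 units), and a single low one for Cdkn1a (1094 units), Pdzrn3 (10.1 units) and Psap (17415 units).

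The line by Dox term passed for 918 genes between VM-3055 and VIM-3039 cells and for 1389 between VM-3055 and MYC-2983 cells. Among the genes with the largest changes or differences, the difference of log2 changes, VM-3055 minus VIM-3039, was positive for Epha8 (4.56), Akr1c19 (4.49), Actg2 (3.51), Sult1d1 (3.43), Onecut3 (1.60) and Sssca1 (1.44), and negative for Nr1h5 (−6.84), Ccnb1ip1 (−5.41), Cldn19 (−4.39), Cxcr7 (−4.02), Slc6a18 (−3.42), Clec18a (−2.89), Fst (−2.78), Tdrd1 (−1.73), Wisp2 (−1.26), Cyp4a12b (−1.24) and Tcn2 (−1.19). In the comparison with the other line, the difference of log2 changes, VM-3055 minus MYC-2983, was positive for Saa3 (3.52), Snai3 (3.16), Slc1a3 (3.15), Pdzrn3 (2.51), Slc16a6 (2.39), Sssca1 (1.43), Actg2 (1.26) and Sult1d1 (1.11), and negative for Camkv (−4.71), Tdrd1 (−4.46), Myh7b (−4.36), Clec18a (−3.42), Fst (−2.59), Cyp4a12b (−2.34), Cldn19 (−2.33), Wisp2 (−1.94), Ppbp (−1.92), Tcn2 (−1.75), Cxcr7 (−1.73), Nr1h5 (−1.44), Slc6a18 (−1.28) and 41156 (−1.06). The term also passed for 20 and 29 other named genes, respectively.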

How the results depend on the processing

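The number of genes that passed was 3554, with 3420 to 3576 when one library was left out. Rises numbered 1277 with TMM and 1490 with quantile normalization in place of 847, and falls 1591 with quantile normalization and 1784 with a pseudocount of 10 in place of 2707. limma voom on estimated reads, chosen after seeing the data, gave 1079 rises and 2428 falls. Gene by line differences moved from 918 to 458 (pseudocount of 10) and 541 (mean of at least 10 units) against VIM-3039 cells, and from 1389 to 675 and 856 against MYC-2983 cells. The cause of these moves was not tested. A pseudocount of 10 damps changes of low values, and the mean filter drops genes of low mean.

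Of 244 named genes tested, 181 passed, 146 of them under every setting, and 0 reversed. A pseudocount of 10 ended the call of 17, leaving out the filter on values above 0 that of 2 (Bik and Gm6644), and limma voom that of 5 (Bcl2l1, Cdkn1a, Mxd4, Ndrg1 and Smad3). Without one library, some changes close to the threshold no longer passed. Without labelled Dox replicate 1 the log2 change was 0.99 for Fbln1. Without labelled Dox replicate 2 it was 1.07 for Col14a1, 0.89 for Lhx1 and −0.998 for Vwf, and without replicate 3 it was 0.98 for Lhx1, −0.98 for Mxd4 and −0.997 for Vwf. Without labelled no-dox replicate 1 it was 0.90 for Lhx1 and 0.999 for Pcna, and without replicate 2 it was 0.98 for Fbln1, 0.92 for Lhx1 and −0.95 for Vwf. Without replicate 3 it was 1.04 for Col14a1, 0.96 for Utp20 and −0.88 for Vwf. Without replicate 4 it was 1.04 for Col14a1, −0.99 for Mxd4 and 0.999 for Utp20, and Slc7a5 passed with 1.001.

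Same-numbered libraries did not deviate together, as the correlations of their deviations lay between −0.31 and −0.046 over 4 pairs. They were not treated as pairs, though so few pairs cannot exclude a link between them. With the replicate block, 3572 genes passed, 854 higher and 2718 lower, and it ended the call of 0 named genes. The floor of 1.16 to 2.65 units limits genes that are nearly silent in one group.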
